A study of Mus musculus with 11 samples.

Results

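Motile axoneme genes were followed in cultured fibroblasts that form a primary cilium, across 4 genotypes. The genes were taken from the gene count table by name. A row belonged to the set if its symbol began with Dnah, Dnai, Dnaaf, Dnal, Cfap, Drc, Rsph or Tekt followed by a digit, or was Spag6, Spag6l, Spag16, Spag17, Ccdc39, Ccdc40, Hydin, Armc4, Ttc25, Ccdc114 or Ccdc151. This gave 97 of the 21684 genes in the table. Armc4, Ttc25, Ccdc114 and Ccdc151 had no row under those symbols. The table lists the outer arm docking complex genes Odad1, Odad2, Odad3 and Odad4, which the symbol rule does not reach, and they are given below among the other motile cilium genes. The choice by symbol used no measured value. It also brings in Cfap and Dnaaf genes whose products work outside the motile axoneme.

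The cells were NIH/3T3, an established mouse embryonic fibroblast line. The groups were cells labelled WT (n = 2 libraries), Xap5 KO (n = 3), Nono KO (n = 3) and Sox5 KO (n = 3). All 11 libraries came from cells starved of serum for 24 h, a treatment that leads fibroblasts to leave the cell cycle and grow a primary cilium. The labels do not name clones or the method of knockout, and they do not say whether replicates were separate cultures, so p-values measure the spread between these libraries. No group was left in serum, so the level of these genes without starvation was not measured.

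A motile cilium beats because dynein motors, set in outer and inner arms along paired microtubules, slide those microtubules against each other. Radial spokes, the nexin-dynein regulatory complex and a central apparatus control the motors, the Ccdc39 and Ccdc40 proteins set the spacing at which arms and spokes attach, and tektins and other inner proteins line the microtubule lumen. Dynein arms are folded and assembled in the cytoplasm by dedicated factors before they enter the cilium. The primary cilium of fibroblasts is a sensory organelle that lacks the central apparatus and dynein arms, and its axoneme is built by intraflagellar transport. Multiciliated cells switch on the motile genes through Foxj1, Mcidas, Gmnc and the Rfx factors, which bind a DNA element called the X-box.

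Total counts per library were 30205878 to 43498383, with the 3 Sox5 KO libraries the shallowest. Of the 3 targeted genes, Fam50a, the gene of Xap5, was at 62.9 to 64.8 CPM (counts scaled to the TMM-corrected library size) in WT and 7.49 to 7.91 CPM in Xap5 KO. Nono was at 351 to 357 CPM in WT and 27.6 to 34.0 CPM in Nono KO. Sox5 was at 45.9 to 49.7 CPM in WT and 12.6 to 13.9 CPM in Sox5 KO, and it was also low in the Xap5 KO libraries (11.9 to 15.0 CPM) and the Nono KO libraries (7.01 to 8.75 CPM). All 12 fibroblast markers examined were read. Of 12 markers of multiciliated epithelium 5 were at 0 in every library, and the summed level of the 12 was 3.13 to 3.77 CPM in WT, 2.09 to 3.42 CPM for Xap5 KO, 2.37 to 3.78 CPM for Nono KO and 4.50 to 6.03 CPM in Sox5 KO. Most of the Sox5 KO sum was Tppp3 (3.96 to 5.07 CPM), named after its values were seen, while the median log2 change of the tested markers was -0.71 there. In these bulk libraries fewer cells with a transcript and less transcript per cell cannot be told apart.

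Most motile axoneme genes were read in the fibroblasts, but few were read well. At least 1 count in at least 1 library was found for 80 of the 97 genes (82.5%, against 76.7% of all genes), and over 3 counts in at least 1 library for 73 (75.3%, against 71.8%). Over 3 counts in every library was found for 31 (32%, against 54% of all genes), and at least 100 counts in every library for 20 (20.6%, against 46.3%). A single library held 44 to 59 of them. By genotype, 63 were read in WT, 61 for Xap5 KO, 68 for Nono KO and 64 in Sox5 KO, with 2 libraries in WT and 3 in each knockout. No member was over 3 counts in every library of 1 genotype and at or under 3 in every other library.

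The 17 genes at 0 in every library came from every role except intermediate and light chains, the nexin-dynein regulatory complex and the Ccdc39-Ccdc40 pair. They were the central apparatus genes Cfap221, Cfap47, Spag16 and Spag6l, the assembly factors Dnaaf11, Dnaaf6 and Dnaaf6b, the inner arm heavy chain Dnah3, the outer arm heavy chain Dnah8, the radial spoke gene Rsph14, the tektins Tekt3 and Tekt5, and Cfap73, Cfap299, Cfap99, Cfap107 and Cfap95. A count of 0 allows up to 3 counts in a library. Spag6l and Spag6 are near-identical copies, so their reads may have been divided by the counting. Dnaaf6 and Dnaaf6b are near-identical copies too, but both were at 0, so no counted reads were divided between them. The 36 genes that were read but did not pass the expression filter (at least 10 counts in enough libraries) reached at most 20 counts in 1 library, and 10 of them had counts in 1 library only. The remaining 44 genes were tested.

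**Figure D1:**
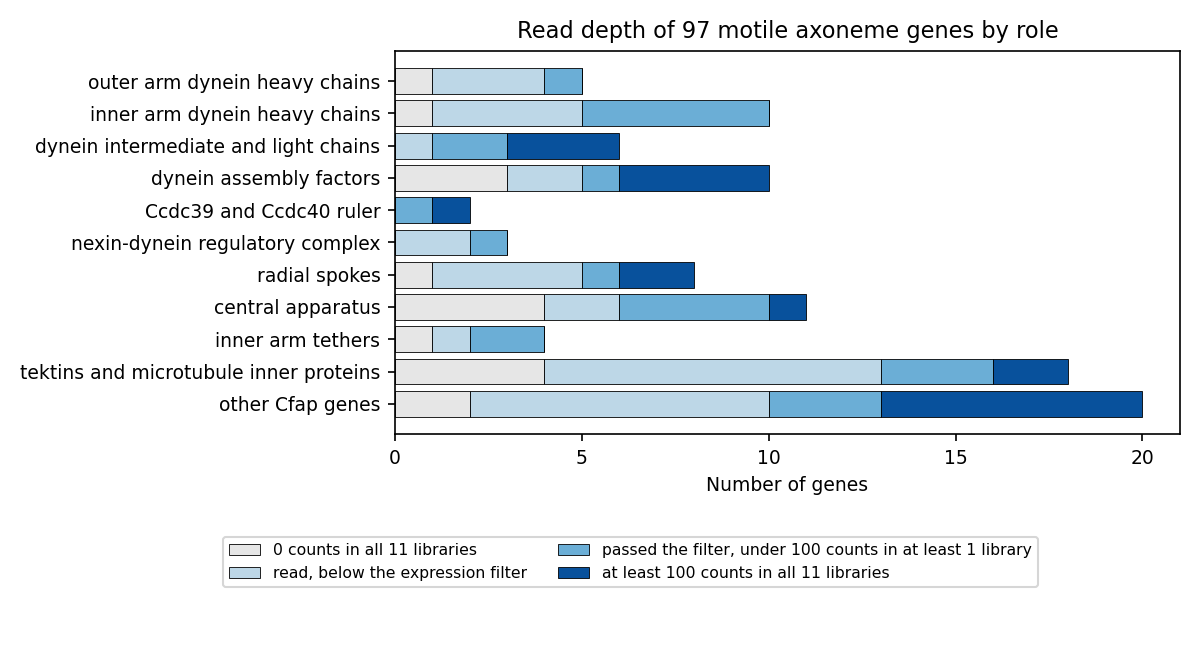
Number of motile axoneme genes (x axis) in each structural role (y axis), coloured by how deeply they were read in the 11 libraries. None of the 15 dynein heavy chain genes reached 100 counts in every library, while 4 of 10 assembly factors named Dnaaf and 3 of 6 intermediate and light chains did.

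The roles differed in depth. Of the 15 dynein heavy chains, the motors themselves, 13 had a count somewhere, 6 were tested and 1, Dnah17, was over 3 counts in every library. Together the 15 gave 0.788% of the CPM summed over all 97 genes. The assembly factors named Dnaaf gave 44.2%, most of it from Dnaaf9, since the set without Dnaaf9 gave 64.8%. All 6 intermediate and light chains were read, and 3 reached 100 counts in every library. Both members of the Ccdc39 and Ccdc40 pair were read, Ccdc39 with 144 to 591 counts and Ccdc40 with 0 to 28 counts. Of 18 tektins and microtubule inner proteins 14 were read, and 2, Cfap20 and Cfap68, reached 100 counts in every library. Of 11 central apparatus genes 7 were read and 1, Cfap69, reached that depth.

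Levels can be compared between genes only per length, here as CPM per kb of the longest annotated transcript. The median of the 96 genes with a length was 0.0253 CPM per kb, that of the 44 tested ones 1.08, and the median of 13302 tested genes from all of the table was 8.22. The 25 intraflagellar transport genes, which a primary cilium uses, had a median of 10.2 CPM per kb. Above the median of all tested genes stood 9 members, averaged over the 11 libraries. They were Dnaaf9 (35.7 CPM per kb), which packages outer arm dynein in the cytoplasm, the light chain Dnal4 (21.7), Cfap36 (19.6), the radial spoke genes Rsph3a (14.6) and Rsph3b (12.5), Cfap418 (12.1), the microtubule inner protein Cfap20 (10.7), the assembly factor Dnaaf10 (9.40) and Cfap298 (8.73). The next 3 were the assembly factor Dnaaf5 (7.69 CPM per kb), Cfap97 (7.04) and the outer arm light chain Dnal1 (5.81). Rsph3a and Rsph3b are near-identical copies, and their separate levels are uncertain.

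**Figure D2:**
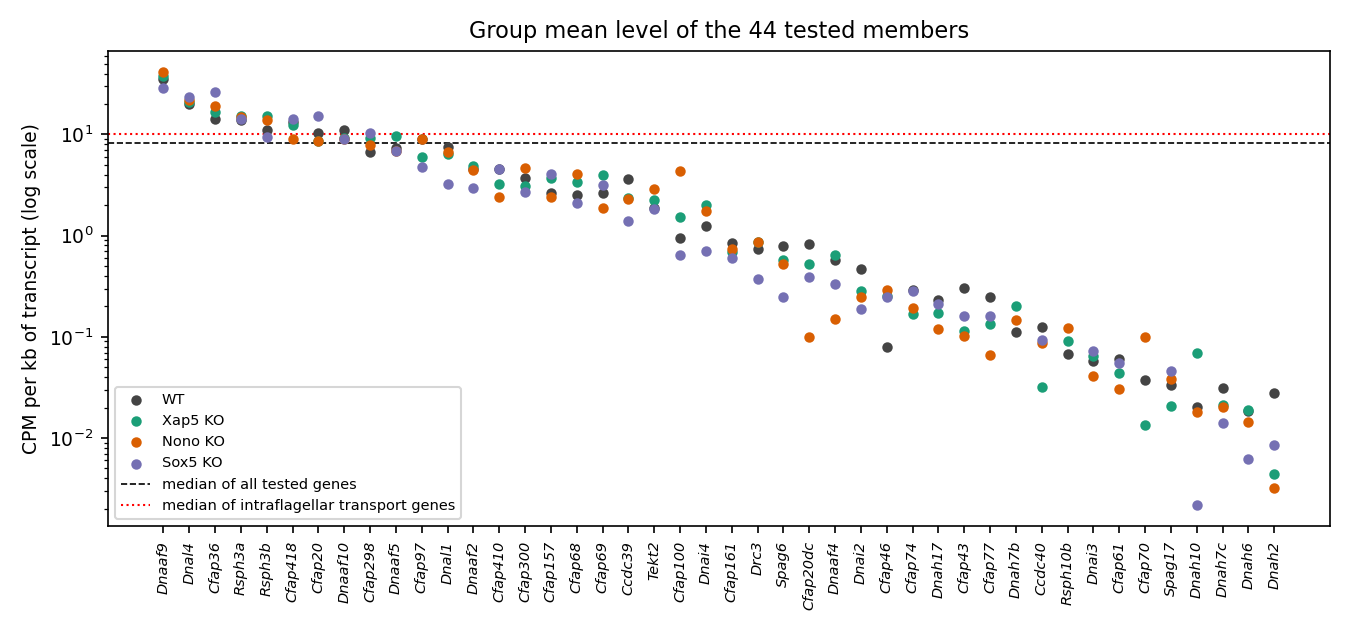
Mean level of each of the 44 tested members in each genotype, in CPM per kb of transcript on a log axis, ordered by the mean over all libraries. The dashed line marks the median of all tested genes (8.22) and the dotted line that of intraflagellar transport genes (10.2), and 9 members lie above the dashed line on average. Dnah7b, Rsph10b and Cfap70 have no Sox5 KO point because they were at 0 there.

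The promoter windows of the set were rich in X-box letters whether or not the gene was read. A window of 300 bases (250 before and 50 after the start, RefSeq, GRCm38.p6) was found for 81 of the 97 genes. The full X-box, an inverted repeat searched by its standard letters on both strands, was found in 49 of the 81 (60.5%) and in 12.1% of 27018 genes of the mouse RefSeq table. Among tested members 52.5% held it, among untested members 68.3% (28 of 41) and among members at 0 in every library 76.9% (10 of 13). The letters GTTGCC of one X-box arm, which overlaps the full X-box in many windows, was in 39.5% of members and 14.1% of all genes. Forkhead letters TGTTTAC were in 4.94% of members and 4.05% of all genes, and the SOX letters ACAATG in 13.6% and 14.3% and AACAAT in 8.64% and 12.2%. A CpG observed-to-expected ratio over 0.6 was found in 60% of tested members and 34.1% of untested members, against 73.4% of all tested genes and 17.7% of all untested genes.

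**Figure D3:**
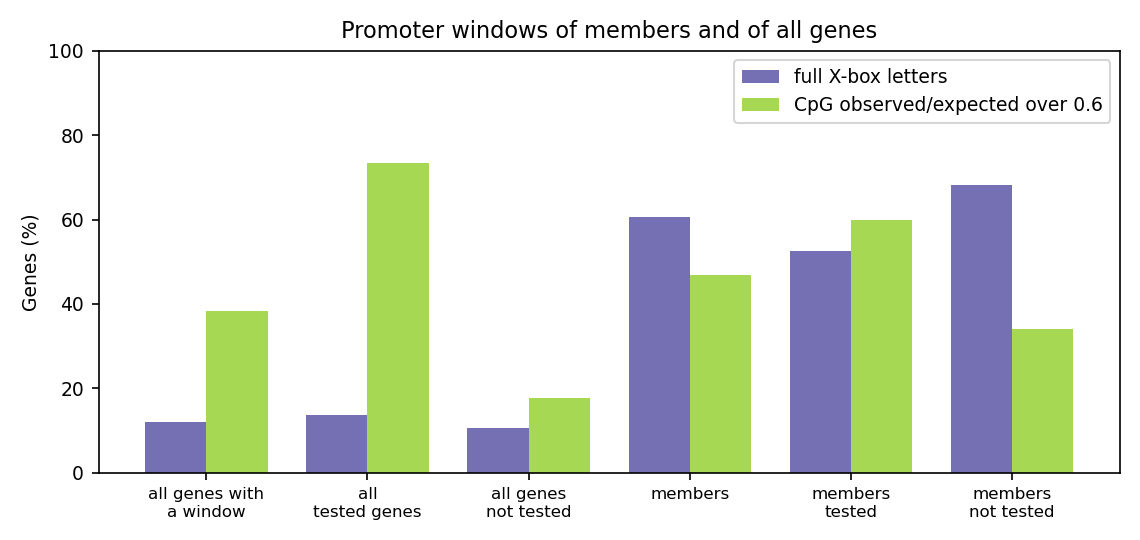
Share of genes (y axis, %) whose promoter window holds full X-box letters (purple) or has a CpG observed-to-expected ratio over 0.6 (green), for all genes and for the motile axoneme genes, each split by whether the gene passed the expression filter. The X-box share is 60.5% in members and 12.1% in all genes, and it is no lower in untested members (68.3%) than in tested ones (52.5%).

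The 150 bases before the start are shown for 6 members whose counts are described below, or, for Spag16, whose counts were 0 throughout, to set the promoter letters beside the levels. They read 5′ to 3′ on the strand of the gene, and capitals mark full X-box letters. Positions are chr1:46066703-46066852 (+) for Dnah7b, chr1:69826820-69826969 (+) for Spag16, chr7:139683816-139683965 (-) for Cfap46, chr3:33844311-33844460 (-) for Ccdc39, chr11:29247273-29247422 (-) for Cfap36 and chr6:90428481-90428630 (-) for Cfap100, all in GRCm38.p6.
Dnah7b: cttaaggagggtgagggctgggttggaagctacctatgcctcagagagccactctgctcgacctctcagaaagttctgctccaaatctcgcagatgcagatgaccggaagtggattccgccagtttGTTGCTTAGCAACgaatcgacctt
Spag16: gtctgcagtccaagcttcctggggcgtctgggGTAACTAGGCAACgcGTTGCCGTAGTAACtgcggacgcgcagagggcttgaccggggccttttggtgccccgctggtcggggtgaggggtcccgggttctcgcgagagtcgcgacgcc
Cfap46: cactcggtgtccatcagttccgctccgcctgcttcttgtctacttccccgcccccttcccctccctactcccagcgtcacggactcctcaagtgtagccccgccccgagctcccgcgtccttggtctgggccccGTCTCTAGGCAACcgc
Ccdc39: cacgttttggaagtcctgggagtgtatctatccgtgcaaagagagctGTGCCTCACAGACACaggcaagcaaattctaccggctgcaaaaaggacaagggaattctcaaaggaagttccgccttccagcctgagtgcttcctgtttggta
Cfap36: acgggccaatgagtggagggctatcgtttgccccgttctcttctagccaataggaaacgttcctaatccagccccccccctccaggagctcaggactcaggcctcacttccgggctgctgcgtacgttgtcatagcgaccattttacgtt
Cfap100: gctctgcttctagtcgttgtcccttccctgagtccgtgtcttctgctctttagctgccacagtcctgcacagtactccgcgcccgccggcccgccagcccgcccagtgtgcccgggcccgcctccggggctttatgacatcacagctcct
Spag16, with a pair of X-boxes side by side, was not read in any library, and Cfap36, with no match in its window, was among the 12 highest members per length. A match is a description of letters and was not tested as a binding site.

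Against WT, 28 of the 44 tested members were called in at least 1 knockout, and in each knockout the share called was no higher than that of all tested genes. In Xap5 KO 9 of 44 tested members rose and 5 fell (31.8%), where 45.5% of all 13332 tested genes were called, at a Benjamini-Hochberg adjusted p under 0.05 in the edgeR quasi-likelihood test fitted over the whole table. In Nono KO 8 rose and 8 fell (36.4%), where 48.6% of all genes were called, and with library totals alone 4 rose and 11 fell. In Sox5 KO 5 rose and 13 fell (40.9%), where 60.9% of all genes were called, 30.6% higher and 30.3% lower. These shares were not tested against the background. The median log2 fold change of the 44 was -0.03 for Xap5 KO, -0.14 for Nono KO and -0.44 in Sox5 KO, beside 0.00, -0.02 and -0.01 over all tested genes, and these medians moved with the WT library kept. Without WT replicate 1 they were -0.03, -0.04 and -0.21, and without WT replicate 2 they were -0.30, -0.24 and -0.47. Each of these fits tested 48 members, so the genes behind the medians changed as well. The 3 comparisons share the 2 WT libraries.

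Of the 44, 16 were called in no knockout (36.4%, against 19.7% of all tested genes), 14 in 1 (31.8% against 28.0%), 8 in 2 (18.2%, against 4006 of the 13332 genes) and 6 in all 3 (13.6% against 22.3%). Higher in all 3 were Cfap46 and Cfap36 (4.55% against 8.33% of all tested genes), and Ccdc39 was lower in all 3 (2.27% against 7.61%). Changes of at least 2-fold were called for 2 members in Xap5 KO (10.3% of all genes), 4 in Nono KO (11.2%) and 6 in Sox5 KO (17.2%). Summed over all 97 genes, the level was 680.5 ± 0.191 CPM in WT (SD, n = 2), 695 ± 15.0 for Xap5 KO, 705 ± 15.8 for Nono KO and 611 ± 5.86 in Sox5 KO (n = 3 each). Without Dnaaf9 it was 448 ± 0.238, 444 ± 0.433, 433 ± 9.11 and 422 ± 17.0 CPM. Over the 11 libraries the sum without Dnaaf9 thus ranged from 407 to 448 CPM.

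**Figure D4:**
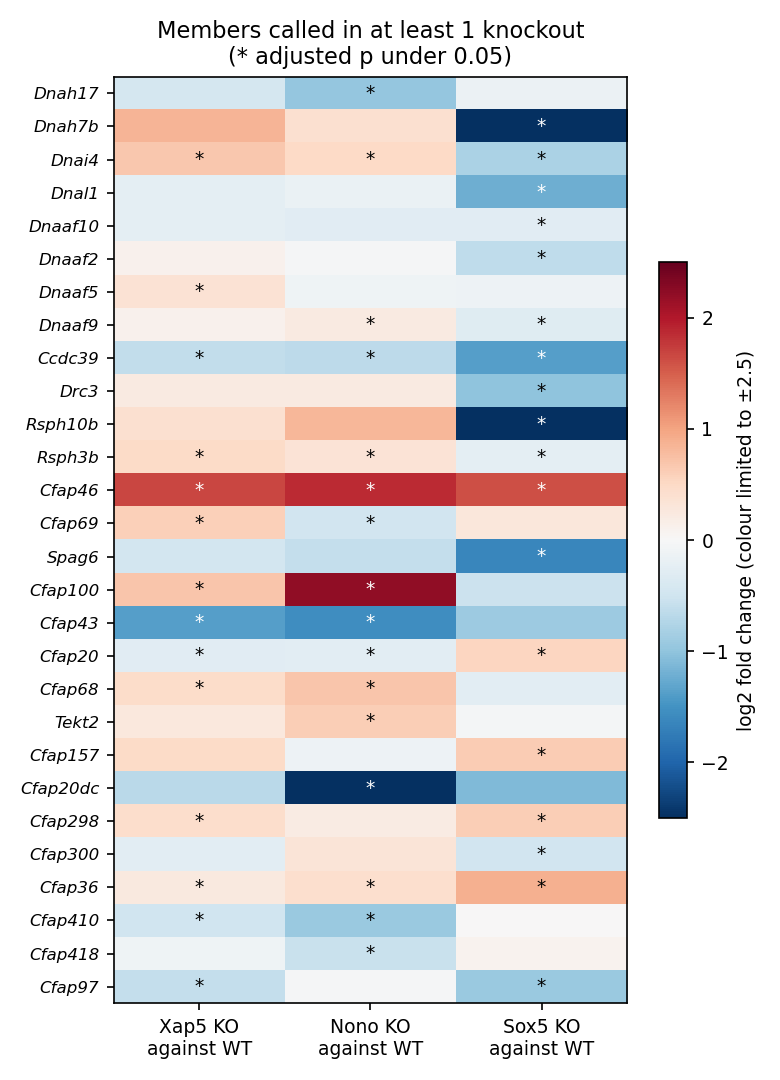
Log2 fold change against WT of the 28 members called in at least 1 knockout, ordered by role, with stars where the adjusted p was under 0.05. Rows of 1 colour across all 3 columns with 3 stars are Cfap46 and Cfap36 (higher) and Ccdc39 (lower), and the darkest cells of Dnah7b and Rsph10b in Sox5 KO stand for 0 counts, so that their colour gives no size.

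The dynein heavy chains, the motor subunits, were near the detection limit, and a single inner arm chain was called in a knockout. Dnah7b had 60 and 55 counts in the WT libraries, 82, 97 and 113 in Xap5 KO, 52, 49 and 108 in Nono KO, and 0 in each of the 3 Sox5 KO libraries. All 8 other libraries were far above the 3 Sox5 KO libraries. Against a floor of 3 counts per library, the Sox5 KO level was at least 14.1-fold lower than WT, and edgeR called it lower (adjusted p = 4.19e-07, quasi-likelihood test). Xap5 KO stood at least 25.4-fold above Sox5 KO, and Nono KO at least 18.8-fold above it. Dnah7a and Dnah7c are close copies of Dnah7b, so reads may have been divided among them by the counting and their separate levels are uncertain. Dnah7a had counts in 2 libraries only, 8 and 2, and Dnah7c had 16 and 16 counts in WT and 5, 3 and 8 in Sox5 KO, which was not called.

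The outer arm heavy chain Dnah17, known from sperm, had 166 and 125 counts in WT and 88, 56 and 66 in Nono KO, so that all Nono KO libraries were below WT. It fell by 0.96 ± 0.317 on the log2 scale (SE) in Nono KO (edgeR adjusted p = 0.0149). That call was lost without WT replicate 1 (adjusted p = 0.196) and without Nono KO replicate 2 (adjusted p = 0.0597). Its exons overlap Pgs1 on the opposite strand, which was at -0.06 on the log2 scale in Nono KO and was not called (edgeR adjusted p = 0.495). The library kit named in the labels does not mark strand, so reads of genes that overlap on opposite strands cannot be told apart. The outer arm heavy chains of airway cilia were barely read: Dnah5 had 5 counts in each of 2 libraries, Dnah9 at most 10 and Dnah11 at most 3.

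Of the intermediate and light chains, Dnal1 and Dnai4 were lower in Sox5 KO. Dnal1, the light chain that binds the outer arm motor domain, stood at 47.5 and 38.5 CPM in WT, 33.5, 39.7 and 35.8 for Xap5 KO, 38.9, 31.5 and 45.3 for Nono KO and 17.9, 18.5 and 18.9 in Sox5 KO. The Sox5 KO libraries were the lowest and did not overlap any other group, and the other 3 groups overlapped one another. Dnal1 fell by 1.22 ± 0.128 on the log2 scale (SE) in Sox5 KO, or 2.34-fold (edgeR adjusted p = 8.36e-08). Its opposite-strand neighbour Pnma1, at 2.79 CPM in WT, was at -0.99 on the log2 scale there (edgeR adjusted p = 0.00978).

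Dnai4, an intermediate chain, stood at 6.08 and 6.85 CPM in WT, 11.6, 7.67 and 11.8 for Xap5 KO, 9.01, 9.30 and 9.06 for Nono KO and 4.39, 3.52 and 3.19 in Sox5 KO. All libraries of Xap5 KO and Nono KO were above WT and all of Sox5 KO below it. The log2 change against WT was 0.68 ± 0.197 (SE) in Xap5 KO (edgeR adjusted p = 0.00841), 0.50 ± 0.197 in Nono KO (0.0448) and -0.80 ± 0.205 in Sox5 KO (0.00176). That Xap5 KO call was lost without WT replicate 1 (adjusted p = 0.0881) and the Nono KO call without any 1 of the 5 libraries compared (adjusted p = 0.0680 to 0.219) and with library totals alone (0.170) or the length and GC correction (0.0714). Its overlapping opposite-strand neighbour Mier1 was at -0.92 on the log2 scale in Sox5 KO (edgeR adjusted p = 1.59e-10) with no call in Xap5 KO or Nono KO. Dnal4, the light chain with the highest level per length, was at 28.9 to 36.2 CPM in all 11 libraries and was not called.

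Among the assembly factors named Dnaaf 1 of 5 tested members rose in Xap5 KO, 1 in Nono KO, and 3 of 5 fell in Sox5 KO. Cfap298 and Cfap300, which also take part in dynein assembly, are counted with the other Cfap genes below. In Sox5 KO Cfap298 was called higher and Cfap300 lower. Of all tested genes 23.2% and 23.5% rose in the first pair of knockouts and 30.3% fell in Sox5 KO. Dnaaf9 stood at 233 ± 0.0475 CPM in WT (SD, n = 2), 252 ± 15.3 for Xap5 KO, 272 ± 12.9 for Nono KO and 189 ± 14.0 in Sox5 KO (n = 3 each). Its log2 change was 0.22 in Nono KO (edgeR adjusted p = 0.00945) and -0.30 in Sox5 KO (0.000617), both called. In Sox5 KO the direction turned with a correction for transcript length and GC content (0.10, edgeR adjusted p = 0.155), an alternative added after the data were seen, and in Nono KO the call was lost without WT replicate 1 or 2 (adjusted p = 0.0535 and 0.0504) and with library totals alone (0.06, adjusted p = 0.498). Dnaaf2, which helps fold dynein heavy chains, was at 15.4 ± 0.554 CPM in WT and 9.94 ± 1.21 in Sox5 KO and fell by 0.63 on the log2 scale (edgeR adjusted p = 0.000496).

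Dnaaf10 fell by 0.29 on the log2 scale in Sox5 KO (edgeR adjusted p = 0.0414), a call lost without WT replicate 1 or Sox5 KO replicate 2 or 3 (adjusted p = 0.271, 0.107 and 0.120) and in DESeq2 (0.0526). Dnaaf5 rose by 0.37 in Xap5 KO (edgeR adjusted p = 0.00734), a call lost without WT replicate 2 (adjusted p = 0.0851). Dnaaf1, Dnaaf3, Dnaaf6, Dnaaf6b and Dnaaf11 had at most 4 counts in any library.

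Ccdc39 was lower than WT in all 3 knockouts, and its partner Ccdc40 was too thinly read to follow. Ccdc39 had 515 and 591 counts in WT, 375, 295 and 338 for Xap5 KO, 316, 362 and 304 for Nono KO and 144, 144 and 183 in Sox5 KO. In CPM it stood at 13.1 ± 0.449 in WT (SD, n = 2), 8.51 ± 1.25 for Xap5 KO, 8.34 ± 0.512 for Nono KO and 5.06 ± 0.709 in Sox5 KO (n = 3 each). No knockout library reached the lower WT value, and every Sox5 KO library was below every library of the other knockouts. It fell by 0.62 ± 0.169 (SE), 0.65 ± 0.169 and 1.37 ± 0.174 on the log2 scale (edgeR adjusted p = 0.00454, 0.00283 and 5.41e-07). Sox5 KO was also lower than Xap5 KO and Nono KO (edgeR adjusted p = 0.000324 and 0.000467). Its exons overlap Ttc14 on the opposite strand, which fell by 0.25, 0.22 and 0.33 on the log2 scale in the same order (edgeR adjusted p = 0.00974, 0.0208 and 0.000721). Ccdc40 had 24 and 28 counts in WT, 0, 6 and 13 for Xap5 KO, 26, 14 and 11 for Nono KO and 17, 18 and 8 in Sox5 KO. It was not called in any knockout (edgeR adjusted p = 0.122, 0.688 and 0.737).

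Of the nexin-dynein regulatory complex genes that the symbol rule reaches, Drc3 alone was tested. Its subunits Gas8, Ccdc65, Iqcd and Iqcg, outside the rule and named after their values were seen, were tested and not called in any knockout. Gas8, at 29.6 CPM in WT, was at 0.15 on the log2 scale in Sox5 KO (edgeR adjusted p = 0.268). Drc3 had 55 and 99 counts in WT, 72, 70 and 109 for Xap5 KO, 63, 102 and 82 for Nono KO and 30, 33 and 21 in Sox5 KO. The Sox5 KO libraries were below all others, while the other groups overlapped. It fell by 1.00 on the log2 scale in Sox5 KO (edgeR adjusted p = 0.0386), a call lost without WT replicate 2 (adjusted p = 0.339) and without Sox5 KO replicate 1 or 3 (adjusted p = 0.0714 and 0.127). Drc1 and Drc7 had counts in 1 and 2 libraries.

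Of the 8 radial spoke genes 3 were tested. Rsph3b was at 24.7 ± 0.273 CPM in WT (SD, n = 2), 34.3 ± 2.28 for Xap5 KO, 31.3 ± 1.73 for Nono KO (n = 3 each), and at 22.0, 22.1 and 18.8 CPM in the Sox5 KO libraries. It was higher in every Xap5 KO and Nono KO library than in WT, and lower in every Sox5 KO library. The log2 changes were 0.47, 0.34 and -0.24 (edgeR adjusted p = 0.000583, 0.00751 and 0.0484). The Sox5 KO call was lost without WT replicate 1 or 2 or Sox5 KO replicate 3 (adjusted p = 0.109, 0.157 and 0.200) in DESeq2 (0.0667) and under 7 alternatives in all, and the Nono KO call without WT replicate 1 (0.0524) and with library totals alone (0.137). Rsph3a, its near copy, was not called in any knockout, at 0.13, 0.09 and 0.02 on the log2 scale, but with the length and GC correction it stood at -0.27 in Sox5 KO (edgeR adjusted p = 0.00713).

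Rsph10b had 0 and 17 counts in WT, 16, 11 and 4 in Xap5 KO, 20, 8 and 13 in Nono KO and 0 in all 3 Sox5 KO libraries. Since 1 WT library was also at 0, WT and Sox5 KO overlapped. It was called lower in Sox5 KO (edgeR adjusted p = 0.0254), at least 1.99-fold below WT against a floor of 3 counts per library, but without WT replicate 2 both groups were at 0 (edgeR adjusted p = 1.00), and the call was lost without any 1 Sox5 KO library (adjusted p = 0.0579 to 0.0619). Its same-strand neighbour Pms2 fell by 0.56 there (edgeR adjusted p = 0.00975).

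In the central apparatus Cfap46 rose in all 3 knockouts. Cfap46 belongs to a side projection of the central pair. It had 27 and 28 counts in WT, 94, 68 and 85 for Xap5 KO, 86, 94 and 99 for Nono KO and 68, 59 and 61 in Sox5 KO. Every knockout library was above both WT libraries. It rose by 1.67 ± 0.362 (SE), 1.86 ± 0.361 and 1.62 ± 0.364 on the log2 scale, or 3.20, 3.65 and 3.09-fold (edgeR adjusted p = 0.000914, 0.000288 and 0.000762), and the knockouts were not called different from one another. These calls held under every alternative tried. Other parts of its projection, Cfap54 and Cfap221, had at most 10 counts in a library, and Cfap74 was not called.

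Spag6, a scaffold of the central apparatus, had 67 and 97 counts in WT and 24, 10 and 24 in Sox5 KO, with every Sox5 KO library below every other library. It fell by 1.64 ± 0.481 on the log2 scale (SE) in Sox5 KO, or 3.14-fold (edgeR adjusted p = 0.00498), and was not called in Xap5 KO or Nono KO. Cfap69 stood at 13.0 ± 0.473 CPM in WT (SD, n = 2), 19.6 ± 1.95 for Xap5 KO, 9.29 ± 1.28 for Nono KO and 15.8 ± 1.69 in Sox5 KO (n = 3 each). Every Xap5 KO library was above WT and every Nono KO library below it. The log2 changes were 0.59 in Xap5 KO (edgeR adjusted p = 0.00184) and -0.48 in Nono KO (0.00755), and Xap5 KO stood above Nono KO by 1.08 (4.45e-07). The Nono KO call was lost without WT replicate 2 (adjusted p = 0.0665).

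**Figure D5:**
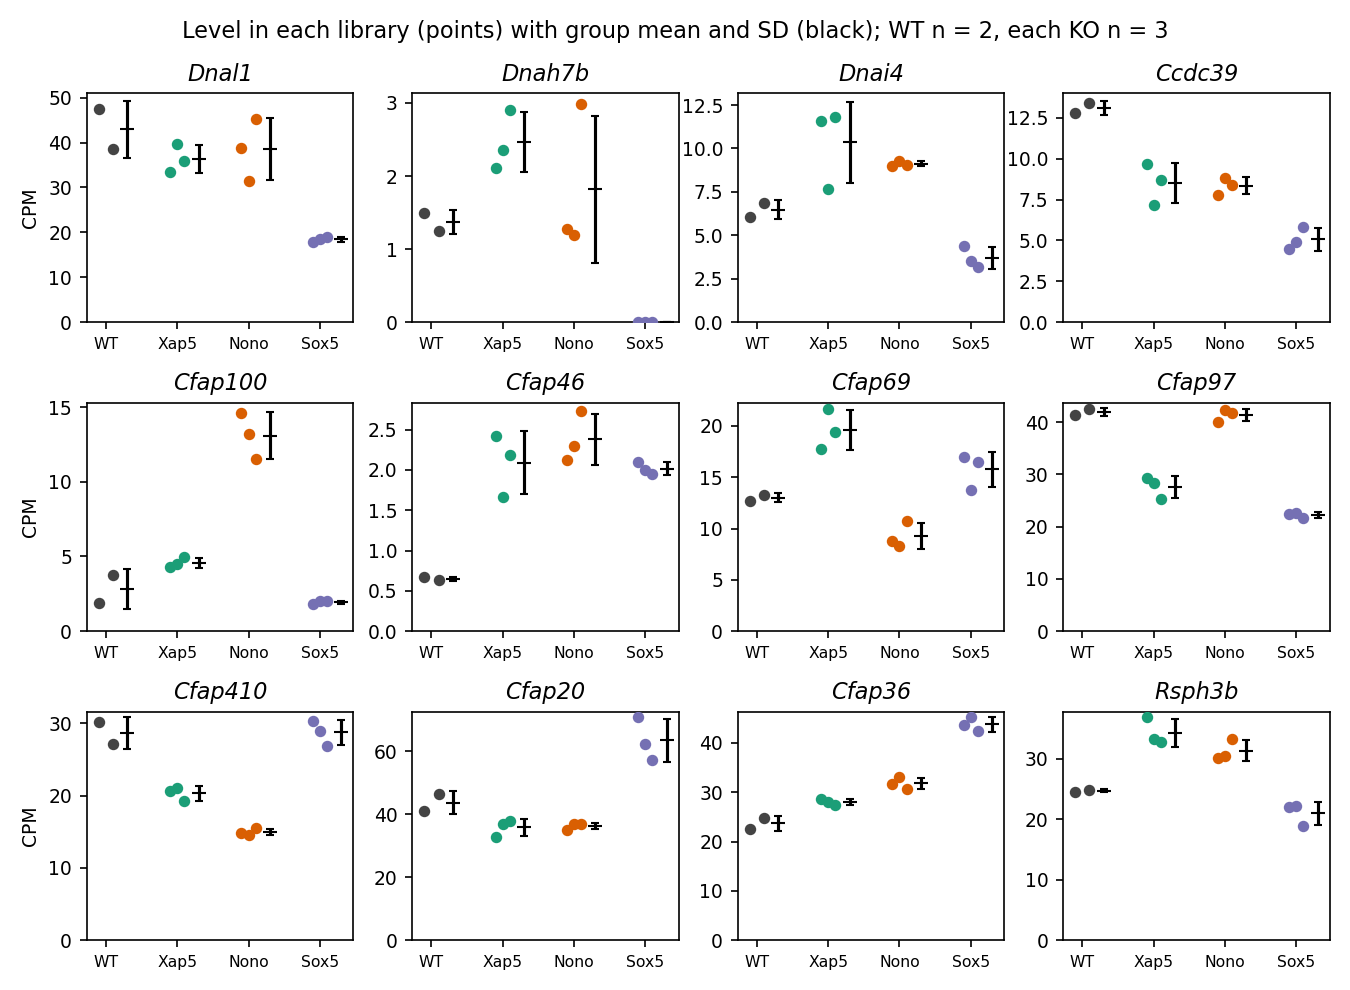
CPM of 12 members in each library (points) by genotype, with the group mean and SD in black. Dnah7b is at 0 in all 3 Sox5 KO libraries, Cfap46 is above WT in all 9 knockout libraries, and Cfap100 reaches 11.5 to 14.6 CPM in Nono KO and at most 4.97 CPM elsewhere.

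Of the proteins that tether inner arms, Cfap100 showed the largest called rise of the set. Cfap100 had 75 and 167 counts in WT, 167, 184 and 193 for Xap5 KO, 590, 544 and 416 for Nono KO and 59, 59 and 63 in Sox5 KO. The Nono KO libraries were far above all others, and the 2 WT libraries differed by about the distance between WT and Xap5 KO. In CPM it stood at 2.83 ± 1.36 in WT (SD, n = 2) and 13.1 ± 1.54 in Nono KO (n = 3), a rise of 2.21 ± 0.235 on the log2 scale (SE), or 4.64-fold (edgeR adjusted p = 2.31e-07). Without WT replicate 2 this rise was 7.06-fold. The rise of 0.69 in Xap5 KO (edgeR adjusted p = 0.0242) was 1.29 without WT replicate 2 and was lost without WT replicate 1 (0.26, adjusted p = 0.441), without Xap5 KO replicate 3 (0.0592) and with only the 2 groups in the fit (0.0878). Nono KO also stood above Xap5 KO and Sox5 KO (edgeR adjusted p = 2.8e-06 and 8.65e-10). Its overlapping opposite-strand neighbour Zxdc fell by 0.40 in Nono KO (edgeR adjusted p = 7.81e-05).

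Cfap43, another tether, had 77 and 74 counts in WT, 25, 35 and 22 for Xap5 KO, 16, 35 and 21 for Nono KO and 30, 29 and 30 in Sox5 KO. Every knockout library was below WT. It fell by 1.38 ± 0.547 (SE) in Xap5 KO and 1.55 ± 0.550 in Nono KO on the log2 scale (edgeR adjusted p = 0.0421 and 0.0218) and was at -0.91 in Sox5 KO, which was not called (0.153). The Xap5 KO call was lost without WT replicate 1 or 2, or Xap5 KO replicate 1 or 3 (adjusted p = 0.0811 to 0.159), and the Nono KO call without WT replicate 1 or 2, or Nono KO replicate 1 (0.0632 to 0.104).

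The microtubule inner proteins moved in both directions. Cfap20, found at the seam of the doublet, was at 43.6 ± 3.69 CPM in WT (SD, n = 2), 35.8 ± 2.68 for Xap5 KO, 36.2 ± 1.05 for Nono KO and 63.5 ± 6.74 in Sox5 KO (n = 3 each). Every Sox5 KO library was above WT and every other knockout library below it. The log2 change was 0.54 in Sox5 KO (edgeR adjusted p = 5.22e-05), -0.28 in Xap5 KO (0.0185) and -0.27 in Nono KO (0.0234). Both falls were lost without WT replicate 2 (adjusted p = 0.212 and 0.289), without Xap5 KO replicate 1 (0.0608) and without Nono KO replicate 1 (0.0699).

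Cfap68 rose by 0.45 in Xap5 KO and 0.70 in Nono KO on the log2 scale (edgeR adjusted p = 0.0231 and 0.000862). Its opposite-strand neighbour Alg9 rose by 0.31 and 0.76 (edgeR adjusted p = 0.027 and 7e-06). The Xap5 KO call of Cfap68 was lost without WT replicate 2 or Xap5 KO replicate 2 (adjusted p = 0.183 and 0.0679) and with only the 2 groups in the fit (0.0511). Tekt2, the one tektin tested, rose by 0.61 in Nono KO (edgeR adjusted p = 0.0478), a call that leaving out WT replicate 1 or 2, or Nono KO replicate 1 or 2, ended (adjusted p = 0.0553 to 0.275), and it was lost under 10 alternatives in all.

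Of the remaining Cfap genes 10 of 20 were tested, and Cfap36 was called higher in every knockout. Cfap36, known to bind the ciliary GTPase Arl3, was at 23.7 ± 1.53 CPM in WT (SD, n = 2), 28.0 ± 0.666 for Xap5 KO, 31.8 ± 1.22 for Nono KO and 43.7 ± 1.47 in Sox5 KO (n = 3 each). All knockout libraries were above WT, and the groups did not overlap. The log2 changes were 0.24, 0.42 and 0.88 (edgeR adjusted p = 0.0279, 0.000371 and 1.9e-08). The Xap5 KO call was lost without WT replicate 1 or Xap5 KO replicate 1 or 2 (adjusted p = 0.270, 0.0780 and 0.0696) and, like the Nono KO call, with the length and GC correction (0.07, adjusted p = 0.543, and 0.19, adjusted p = 0.0649). In all, 7 alternatives ended the Xap5 KO call.

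Cfap410, which acts with the kinase Nek1 in ciliogenesis, was at 30.2 and 27.1 CPM in WT, 20.7, 21.1 and 19.2 for Xap5 KO, 14.8, 14.6 and 15.5 for Nono KO and 30.4, 29.0 and 26.9 in Sox5 KO. Xap5 KO and Nono KO were below WT in every library, and Sox5 KO overlapped WT. It fell by 0.93 ± 0.102 on the log2 scale (SE) in Nono KO (edgeR adjusted p = 1.26e-07) and by 0.49 in Xap5 KO (0.000396). Cfap97 was at 41.4 and 42.5 CPM in WT, 29.4, 28.3 and 25.3 for Xap5 KO, 40.1, 42.3 and 41.7 for Nono KO and 22.5, 22.7 and 21.6 in Sox5 KO. Here Xap5 KO and Sox5 KO were below WT in every library, and Nono KO overlapped WT. It fell by 0.60 ± 0.0871 (SE) in Xap5 KO (edgeR adjusted p = 7.38e-06) and 0.92 ± 0.0882 in Sox5 KO (1.02e-08). Its opposite-strand neighbour Snx25 moved otherwise, at -0.54 in Nono KO (edgeR adjusted p = 1.24e-05) and 0.42 in Sox5 KO (0.000156).

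Cfap20dc had 81 and 108 counts in WT, 23, 108 and 37 for Xap5 KO, 20, 8 and 4 for Nono KO and 17, 39 and 40 in Sox5 KO. Nono KO was below WT in every library, while the Xap5 KO libraries spanned the range from Sox5 KO to WT. It fell by 3.04 ± 0.685 on the log2 scale (SE) in Nono KO, or 8.38-fold (edgeR adjusted p = 0.000774), and 14.2-fold without Nono KO replicate 1. Cfap418, a gene of photoreceptor cilia, fell by 0.56 in Nono KO (edgeR adjusted p = 0.000385).

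Cfap298 rose by 0.44 in Xap5 KO and 0.62 in Sox5 KO (edgeR adjusted p = 0.0191 and 0.00125), and Cfap157 rose by 0.63 in Sox5 KO (0.00934). With the length and GC correction none of these rises was called (adjusted p = 0.0967, 0.502 and 0.356). The Cfap298 call in Xap5 KO was also lost without WT replicate 1 or Xap5 KO replicate 3 (adjusted p = 0.178 and 0.0659), and the Cfap157 call without WT replicate 1 or 2 (0.0513 and 0.0503). Cfap300 fell by 0.47 in Sox5 KO (edgeR adjusted p = 0.0465), a call lost without WT replicate 1 or 2, or Sox5 KO replicate 1 or 2 (adjusted p = 0.0608 to 0.224), in DESeq2 (0.0562) and under 7 alternatives in all.

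Between knockouts, Sox5 KO stood lower than the others for more members than the reverse. Of 44 members 16 were higher in Xap5 KO and 3 were higher in Sox5 KO when those were compared. That was 43.2%, where 61.6% of all genes were called, 31.1% above Sox5 KO and 30.4% below it. Against Sox5 KO, 16 members were higher and 9 lower in Nono KO (56.8%, where 63.5% of all genes were called). All genes split there into 30.9% above Sox5 KO and 32.6% below it. The lean among members thus came mainly from few being higher in Sox5 KO, and it was not tested against all genes. Xap5 KO and Nono KO were closer, with 7 higher and 3 lower in Xap5 KO (22.7%, where 53.0% of all genes were called). The median log2 differences of the 44 were 0.31, 0.15 and 0.08 in that order. The Sox5 KO libraries were also the shallowest. Both dynein intermediate and light chains called against WT, Dnai4 and Dnal1, stood above Sox5 KO by 1.48 and 0.98 on the log2 scale with Xap5 knocked out and by 1.3 and 1.07 with Nono knocked out (edgeR adjusted p from 1.55e-07 to 2.84e-06). Of the 44 members 13 were called in none of the 6 comparisons.

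The wider motile programme outside the symbol rule was likewise partly read. Calls of genes outside the rule, here and below, were not put through the alternatives. The table holds 69 such genes, 10 without a count in any library and 44 tested, with a median of 0.216 CPM per kb over the 69. Against WT 3 rose and 7 fell for Xap5 KO, 3 rose and 8 fell for Nono KO and 9 rose and 5 fell in Sox5 KO, where 45.5%, 48.6% and 60.9% of all tested genes were called, with medians of -0.04, -0.02 and 0.00 on the log2 scale. The switch genes of multiciliated cells were at the edge of detection. Foxj1 had 13 and 41 counts in WT, 28, 0 and 18 for Xap5 KO, 4, 8 and 3 for Nono KO and 2, 5 and 4 in Sox5 KO, and it was not called in any knockout (edgeR adjusted p = 0.651, 0.105 and 0.0861). Mcidas had 0 to 22 counts in a library and was not called, and Gmnc had 5 counts in 1 library.

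The X-box factor Rfx3 was well read and fell in all 3 knockouts. It had 1077 and 1099 counts in WT, 610, 860 and 683 for Xap5 KO, 522, 447 and 412 for Nono KO and 321, 273 and 342 in Sox5 KO, every knockout library being below WT. The falls were 0.51 ± 0.134 (SE), 1.14 ± 0.135 and 1.36 ± 0.137 on the log2 scale (edgeR adjusted p = 0.0032, 3.98e-07 and 1.9e-08). Rfx2, at 3.20 ± 0.352 CPM in WT (SD, n = 2), was not called. Rfx1, named after its values were seen, was at 33.0 to 35.8 CPM in every WT, Xap5 KO and Sox5 KO library without a call, and fell by 0.23 in Nono KO (edgeR adjusted p = 0.0231). Spef1, a protein of the central apparatus, fell by 0.60, 0.71 and 0.70 (edgeR adjusted p = 0.00445, 0.000972 and 0.000831), and Ruvbl1, a helicase that takes part in dynein assembly, by 0.27, 0.35 and 0.29 (0.011, 0.00143 and 0.00456).

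The docking complex, which fixes outer arms to the microtubule, had counts for all 4 of its genes, and 1, Odad3, was called in a knockout. Odad3 had 50 and 42 counts in WT and 109, 103 and 67 in Xap5 KO, and it rose there by 1.10 ± 0.408 on the log2 scale (SE, edgeR adjusted p = 0.0376). Odad1 had 3 counts in 1 library, Odad2 at most 11 and Odad4 at most 44, and Odad4 was not called. The inner protein gene Pierce2, with 65 and 60 counts in WT, rose in Xap5 KO (126, 148 and 106) and Nono KO (132, 158 and 94, edgeR adjusted p = 0.00768 and 0.00613). Wdr66 rose by 3.27 ± 0.417 (SE) in Nono KO, from 16 and 22 counts in WT to 197, 211 and 111, and by 1.49 ± 0.430 in Sox5 KO (edgeR adjusted p = 3.06e-06 and 0.00546). Lrguk fell by 1.00 in Nono KO, and it fell by 2.16 in Sox5 KO (edgeR adjusted p = 0.000652 and 5.1e-08). The assembly factor Zmynd10 rose by 1.44 in Sox5 KO, with 22 and 35 counts in WT and 62, 50 and 58 in Sox5 KO (edgeR adjusted p = 0.0389). Efhc2 had 5 and 13 counts in WT and 0 in all 3 Nono KO libraries, where it was called lower (edgeR adjusted p = 0.0378).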

How the data were processed

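RNA-seq gene counts of 11 libraries were analysed. The deposited values are whole-number estimated counts per gene, and the submitters' processing notes name HISAT2 2.1.0, StringTie 1.3.3b, DESeq2 1.12.4 and the builds GRCm39 and mm39 without saying which step each served. Value 2 occurs 3302 times and value 1 occurs 857 times, so a count may not equal 1 fragment. From these counts CPM and fold changes were computed with edgeR 4.0.16 in R 4.3.3 (TMM, default expression filter with a minimum count of 10, quasi-likelihood test, 1 mean per group over all 11 libraries, Benjamini-Hochberg over 13332 genes, called at 0.05), tested on simulated data. The biological coefficient of variation was 10.6%. Lengths came from GENCODE, matched by gene ID, for 96 members.

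The members and gene lists were chosen with earlier results of these data known. Named genes were the called members (library values and full statistics for at most the 6 largest changes per knockout, with the group levels of some others added after their values were seen), the 12 highest per length, the docking complex, Ccdc39 and Ccdc40, all members at 0, and, of the other motile genes, those called alike in all knockouts, the 3 largest changes per knockout and 5 regulators. Markers of sperm and epithelium were also read: 2 of 12 and 2 of 8 were at 0 in every library, and the epithelial sum was at most 0.497 CPM. Alternatives covered normalization, filters, DESeq2 1.42.0, the samples fitted, a replicate block, a length and GC correction, and leaving out each library. Calls of single genes were followed through them for the members alone. One named gene and one neighbouring gene are not reported here.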

Additional observations from a re-analysis of the deposited data

How the results depend on the processing

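Of 48 calls of a member against WT, 23 held under every alternative that gave a value and 25 were lost under at least 1. Requiring a change of at least 2-fold left 2 members in Xap5 KO, 4 in Nono KO and 6 for Sox5 KO against WT, and 4, 7 and 9 in Xap5 KO against Nono KO, Xap5 KO against Sox5 KO and Nono KO against Sox5 KO. Leaving out each library gave 10 to 13, 10 to 15 and 14 to 16 members against WT, and 10 to 10, 17 to 19 and 22 to 25 between knockouts. The count of 10 in Nono KO against WT came without WT replicate 1 and again without WT replicate 2, where 1 WT library remains and is assumed to vary like the others. Members read at all were 78 to 80 when each library was left out, 31 with over 3 counts required in every library and 44 with the expression filter. With library totals alone the median of all genes moved to -0.18 in Nono KO and -0.12 in Sox5 KO, and the Nono KO split was 4 higher and 11 lower in place of 8 and 8. With the length and GC correction, added after the data were seen, it was 5 and 9, Dnaaf9 in Sox5 KO reversed to 0.10 and Rsph3a in Sox5 KO to -0.27 (edgeR adjusted p = 0.00713). The cause was not tested. Same-numbered replicates did not pair (r from -0.0955 to 0.104 over 15 pairs, 1 over 0.1), and with a replicate block 14, 16 and 14 members were called against WT and 10, 19 and 24 between knockouts. Members below the expression filter, 53 of 97, have too few counts for a test.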

Other observations

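Some members below the expression filter had a few counts in 1 or more libraries and belong to no comparison. Those given here were picked out after their values were seen. Cfap53, a microtubule inner protein, had 7 and 20 counts in WT, 2 in 1 Nono KO library, 4 in 1 Sox5 KO library and 0 elsewhere. The radial spoke gene Rsph4a had 6 and 4 counts in WT and 14, 8 and 3 in Nono KO. Cfap92 had 9 and 4 counts in WT, 3, 2 and 8 in Xap5 KO, 5, 1 and 5 in Nono KO, and 3 in 1 Sox5 KO library. Rsph6a had 16 counts in Xap5 KO replicate 3 and 0 in the other 10 libraries, and Tekt1 had 11 in Nono KO replicate 1 alone. Hydin, the large central apparatus gene, had 6 and 1 counts in 2 Sox5 KO libraries.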
